A study of Mus musculus with 19 samples.

Results

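Transcripts of 9 leukocyte integrin and selectin pathway genes were followed in monocytes sorted from mouse bone marrow: the integrin alpha chains Itgam, Itgal, Itgax and Itga4, the beta chains Itgb1, Itgb2 and Itgb7, the selectin ligand Selplg and the hyaluronan receptor Cd44. They were chosen by name, with earlier results of these data known. All 9 have counts among the 50854 genes of the table and were among the 18652 genes tested, those with a mean of at least 1 read per library. The cells came from female REP mice of 8 to 12 wk, a reporter line whose cells fluoresce in separate colours when they express CCR1, CCR2 or certain other chemokine receptors. There were 4 libraries of resting CCR1/2+ve monocytes (reporters of both CCR1 and CCR2), 4 of resting CCR2+ve monocytes (CCR2 alone), 3 of inflamed CCR1/2+ve monocytes (replicates 2, 3 and 4), 4 of inflamed CCR2+ve monocytes and 4 labelled inflamed CCR1. Inflammation in this study was driven by an osmotic pump under the skin that released IL-3, IL-6, GM-CSF and IFN-α for 7 d. The paper's section on marrow of resting mice, which covers its transcriptomic samples, names no pump. Pumps with vehicle are described elsewhere in it, and whether the resting libraries came from such mice is not stated. The implantation may therefore also differ between resting and inflamed groups. Whether each library came from a mouse of its own is not given in the sources used here, so p values measure the spread between these libraries, which may in part be technical.

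Integrins are surface receptors made of 1 alpha and 1 beta chain, and a chain without its partner is not held on the cell surface. On leukocytes the beta2 chain (Itgb2, CD18) pairs with CD11a (Itgal) to form LFA-1, with CD11b (Itgam) to form Mac-1 and with CD11c (Itgax), and these receptors bind ICAMs and complement to hold cells firmly to endothelium. The alpha4 chain (Itga4, CD49d) pairs with beta1 (Itgb1) to form VLA-4, a receptor for VCAM-1 and fibronectin that also retains cells in bone marrow, or with beta7 (Itgb7), which binds MAdCAM-1 of gut endothelium. Rolling comes before firm adhesion: PSGL-1 (Selplg), once decorated with fucosylated and sulfated groups, binds selectins, and CD44 binds hyaluronan and, when glycosylated, selectins.

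The positions of the genes on GRCm38 (GENCODE M21) place 3 of the alpha chains on chromosome 7, Itgal (ENSMUSG00000030830) at 127296260 to 127335138, Itgam (ENSMUSG00000030786) at 128062640 to 128118491 and Itgax (ENSMUSG00000030789) at 128129547 to 128150657, all on the forward strand. Itga4 (ENSMUSG00000027009) lies on chromosome 2 at 79255426 to 79333123 and Cd44 (ENSMUSG00000005087) on the same chromosome at 102811141 to 102901665. Itgb1 (ENSMUSG00000025809) lies on chromosome 8 at 128685654 to 128733200, Itgb2 (ENSMUSG00000000290) on chromosome 10 at 77530252 to 77565708, Itgb7 (ENSMUSG00000001281) on chromosome 15 at 102215995 to 102231944 and Selplg (ENSMUSG00000048163) on chromosome 5 at 113818536 to 113832644. Reads were counted over all exons of a gene, so isoforms were not separated. Of the exonic bases of Itgam, 68.7% are shared with Gm49368, a gene on the same strand that had 0 to 8 reads per library, and reads on shared bases were counted for neither gene. The counts of Itgam therefore rest on 1574 of its 5024 exonic bases. Itga4 shares 8.04% of its exonic bases with Cerkl on the other strand (65 to 205 reads per library), and the strand of counting is not given.

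RefSeq promoters (GRCm38.p6) were found for 6 of the 9 genes, and those of Itgal, Itgb2 and Selplg were therefore not searched. The 250 bases before the start are shown for 3 of them, because Itgb1 and Itgb7 were the members that fell in both populations with inflammation and Itgam was an alpha chain that did not pass the test there. Capitals mark the core of the PU.1 motif (GAGGAA, either strand), PU.1 being the main myeloid transcription factor of the ETS family.
Itgam, chr7:128062390-128062639, forward strand: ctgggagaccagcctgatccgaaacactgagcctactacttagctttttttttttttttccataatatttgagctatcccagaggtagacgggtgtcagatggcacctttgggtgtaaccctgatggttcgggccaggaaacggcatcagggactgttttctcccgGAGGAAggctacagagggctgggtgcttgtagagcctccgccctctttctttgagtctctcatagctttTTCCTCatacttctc
Itgb1, chr8:128685404-128685653, forward strand: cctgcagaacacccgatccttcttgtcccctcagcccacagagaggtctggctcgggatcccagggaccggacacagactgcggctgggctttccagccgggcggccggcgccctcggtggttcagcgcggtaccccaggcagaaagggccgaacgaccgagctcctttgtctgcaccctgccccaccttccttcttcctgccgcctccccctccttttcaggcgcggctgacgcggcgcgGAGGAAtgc
Itgb7, chr15:102231936-102232185, reverse strand: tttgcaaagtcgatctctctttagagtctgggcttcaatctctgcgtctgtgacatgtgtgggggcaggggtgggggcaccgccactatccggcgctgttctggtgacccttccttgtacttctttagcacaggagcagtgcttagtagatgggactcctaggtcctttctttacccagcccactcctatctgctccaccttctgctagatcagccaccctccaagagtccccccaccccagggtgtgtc
The letters GAGGAA had 2 matches in the window of Itgam, at 84 to 79 and 15 to 10 bases before the start, and 1 in that of Itgb1, at 9 to 4 bases before the start. The window of Cd44 held 2 matches, and those of Itga4, Itgax and Itgb7 held none. Of 32851 promoters of this length, 23.3% hold the motif. The letters of a STAT motif (GAS, TTCNNNGAA, in 7.02% of promoters) and of an interferon response element (GAAA followed after any 2 bases by GAAA, in 2.98%) were in none of the 6 windows. A match describes the letters only and is not evidence that a factor binds.

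Between 22268658 and 30502009 reads were counted on genes per library (median 23706580, n = 19). The defining monocyte transcripts were present in the 15 libraries of the other 4 groups, with group means of Ccr2 of 633 to 1251 read counts scaled to a common library size (CPM, the usual normalised count of RNA-seq) and of Csf1r of 407 to 1504 CPM. In the 4 libraries labelled inflamed CCR1, Ccr2 was at 5.82 ± 2.56 CPM (SD, n = 4) and Csf1r at 17.7 ± 4.44 CPM. The 12 monocyte markers summed to 7741 to 12360.0 CPM there and to 31800.0 to 59750.0 CPM in the other 15 libraries, and 11 mature neutrophil markers to 105000 to 153600 CPM and 842 to 3738 CPM, with the neutrophil granule gene Ngp the largest part. Not every marker followed: Ly6c2 was at 1421 ± 48.5 CPM (group means of the others 1856 to 2645 CPM), Csf3r at 565 ± 36.1 CPM (169.8 to 519 CPM) and Mmp8, a neutrophil collagenase, at 9.10 ± 3.62 CPM (451 to 1606 CPM). By most of these markers the libraries go against their label of monocytes, and they enter the comparisons below only where named.

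Other markers moved between the monocyte groups as well. Summed mature neutrophil markers were at 2631 to 3286 CPM in resting CCR1/2+ve, 842 to 1146 CPM in resting CCR2+ve, 3046 to 3738 CPM in inflamed CCR1/2+ve and 1720.0 to 2048 CPM in inflamed CCR2+ve libraries. Of these markers, Ly6g and Retnlg had means under 1 CPM in both resting groups. Cxcr2 did in resting CCR2+ve, and Ly6g and Cxcr2 did in inflamed CCR2+ve libraries. Mmp8, given above, is part of these sums. In the same order of groups, early granule markers (6 of 7 with counts, Gfi1 under 1 CPM) were at 3291 to 6795, 445 to 1643, 955 to 1367 and 351 to 629 CPM, and 9 dendritic cell markers at 19.1 to 39.3, 113 to 196, 11.8 to 16.6 and 30.3 to 36.4 CPM. The 12 proliferation markers summed to 3181 to 4062, 1839 to 2335, 3009 to 3716 and 2065 to 3391 CPM. Summed erythroid markers (8 genes) were at 56.9 to 291 CPM in resting and 0.990 to 3.54 CPM in inflamed monocyte libraries, while basophil and mast cell markers (7 of 8 with counts) were at 7.02 to 32.7 and 111 to 247 CPM. In each inflamed monocyte group only 1 of these 7 reached a mean of 10 CPM, and Gata2 and Kit were under 1 CPM. In the libraries labelled inflamed CCR1 the early granule markers summed to 55140.0 to 61880.0 CPM, the proliferation markers to 5393 to 5745 CPM and the basophil and mast cell markers to 1040.0 to 1149 CPM. In the order of the 4 monocyte groups above, 12 monocyte markers summed to 31800.0 to 44660.0, 47280.0 to 54470.0, 52550.0 to 56550.0 and 48380.0 to 59750.0 CPM, and 8 T and NK cell markers to 30.5 to 80.7, 9.56 to 15.1, 5.35 to 6.59 and 3.50 to 4.21 CPM (7 of 8 under 1 CPM in each group). In the monocyte libraries 8 B cell markers summed to 18.4 to 40.4 CPM, 7 megakaryocyte markers to at most 2.84 CPM and 10 tissue macrophage markers to 212 to 390.2 CPM at rest and 523 to 697 CPM in inflammation. Of the tissue macrophage markers, 2 reached a mean of 10 CPM in inflamed CCR1/2+ve and 4 in inflamed CCR2+ve monocytes. Cd5l and Timd4 were under 1 CPM in both. The part of these cells in the results below was not tested. In bulk RNA, fewer cells of a type and less RNA per cell cannot be told apart.

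The beta2 chain was the most abundant of the 9 transcripts per length in every group. Normalised counts (CPM, scaled with TMM factors) of Itgb2 were 832, 738, 1003 and 916 in resting CCR1/2+ve and 1040, 988, 1226 and 1177 in resting CCR2+ve monocytes. They were 2351, 2310 and 2177 in inflamed CCR1/2+ve, 1884, 1892, 1899 and 1958 in inflamed CCR2+ve and 1550, 1471, 1755 and 2023 in the libraries labelled inflamed CCR1. Every inflamed library was therefore above every resting library. Per kilobase (kb) of exon, group means of Itgb2 ran from 286 ± 37.2 CPM per kb (SD, n = 4) in resting CCR1/2+ve to 747 ± 29.7 CPM per kb (n = 3) in inflamed CCR1/2+ve monocytes.

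Among the alpha chains of beta2, Itgal was higher in inflamed monocytes and Itgam varied least. Itgal, the LFA-1 chain, was at 129, 122, 153 and 149 CPM in resting CCR1/2+ve and at 194, 173.0, 193 and 192 CPM in resting CCR2+ve monocytes. It was at 365, 543 and 438 CPM in inflamed CCR1/2+ve, 371, 329, 552 and 487 CPM in inflamed CCR2+ve and 159.9, 202, 201 and 229 CPM in the libraries labelled inflamed CCR1. The resting and inflamed libraries of each population did not overlap, and the inflamed populations overlapped fully. Itgam, the Mac-1 chain, was at 74.6 to 114 CPM in resting CCR1/2+ve, 99.4 to 157 CPM in resting CCR2+ve, 106 to 123 CPM in inflamed CCR1/2+ve, 108 to 121 CPM in inflamed CCR2+ve and 77.6 to 102 CPM in the libraries labelled inflamed CCR1. Its highest group mean was 1.43 times its lowest, the smallest range of the 9. CD11b, the product of Itgam, was part of the gate in the study's sorts for culture and single cells, and the gate of the bulk libraries is not given in the sources used here.

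Itgax, the CD11c chain, was scarce, with 0 to 161 reads per library. Its counts were 0, 11, 9 and 19 reads (up to 0.586 CPM) in resting CCR1/2+ve and 47, 59, 10 and 23 reads (up to 2.11 CPM) in resting CCR2+ve monocytes. They were 36, 36 and 38 reads in inflamed CCR1/2+ve, 49, 118, 161 and 48 reads in inflamed CCR2+ve and 2, 2, 3 and 3 reads in the libraries labelled inflamed CCR1. Replicates 2 and 3 of inflamed CCR2+ve monocytes (5.49 and 7.79 CPM) stood well above the other 2 of that group (2.17 and 2.07 CPM). The library with 0 reads allows up to 3 reads, and this limit covers counting error only.

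Set against each other per kb of unshared exon, the alpha chains shifted towards Itgal with inflammation. Itgal made up 26.6 ± 1.96% (SD, n = 4) of the summed Itgal, Itgam and Itgax level in resting CCR1/2+ve and 25.8 ± 3.07% (n = 4) in resting CCR2+ve monocytes. In inflamed monocytes its share was 48.5 ± 3.13% (n = 3) in the CCR1/2+ve and 47.0 ± 5.88% (n = 4) in the CCR2+ve population. The resting libraries lay between 22.7 and 29.3% and the inflamed libraries of both populations between 41.8 and 52.8%, with 29.4 to 38.3% in the libraries labelled inflamed CCR1. Over all exonic bases of Itgam the shares would be 53.5, 52.3, 74.8, 73.2 and 62.1%, in the same order of groups. Itgax never exceeded 1.02%. These shares were chosen after the values were seen and were not tested.

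**Figure D1:**
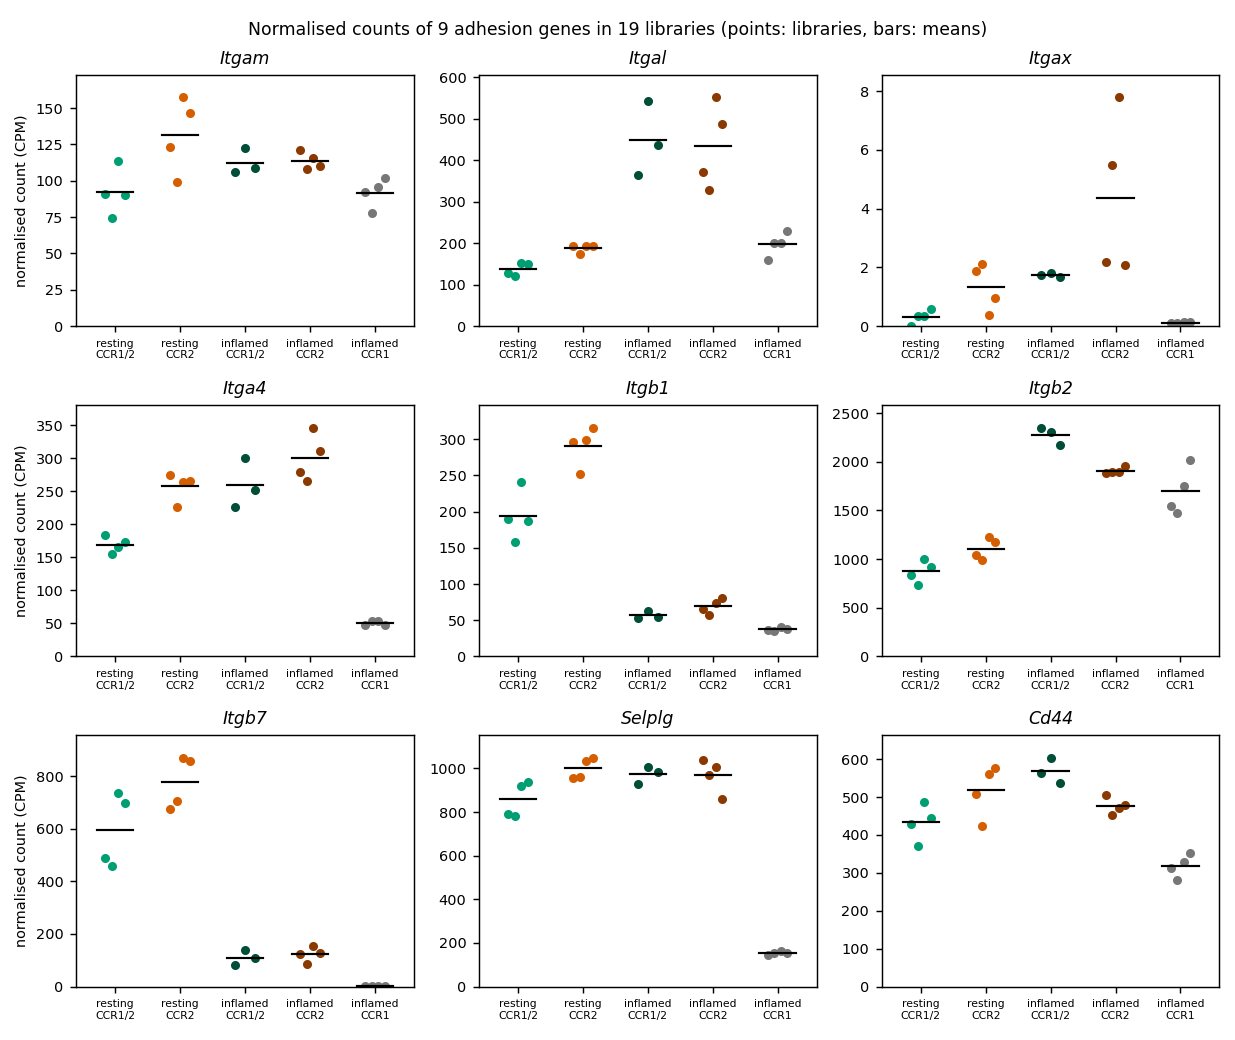
Normalised counts (CPM, linear axes from 0) of the 9 genes in the 19 libraries, 1 panel per gene and 1 column per group, with points for libraries and bars for group means. Itgb1 and Itgb7 sit high in both resting groups and low in all inflamed libraries, Itgal and Itgb2 do the reverse in monocytes, and Selplg is at 784 to 1049 CPM in the 15 CCR1/2+ve and CCR2+ve libraries but at 146 to 163 CPM in those labelled inflamed CCR1.

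The beta chains of alpha4 behaved in the opposite way to beta2. Itgb7 was at 491, 459, 738 and 698 CPM in resting CCR1/2+ve and 676, 707, 871 and 858 CPM in resting CCR2+ve monocytes. It was at 82.5, 140.4 and 107 CPM in inflamed CCR1/2+ve, 123, 86.0, 154 and 127 CPM in inflamed CCR2+ve and 0.955, 1.99, 1.29 and 0.895 CPM (19 to 44 reads) in the libraries labelled inflamed CCR1. Both resting groups lay well above the inflamed groups, and replicates 1 and 2 lay below replicates 3 and 4 in each resting population. Itgb1, the common beta1 chain, was at 189, 158, 241 and 187 CPM in resting CCR1/2+ve and 297, 253, 299 and 316 CPM in resting CCR2+ve monocytes. It was at 52.4, 62.1 and 54.9 CPM in inflamed CCR1/2+ve, 65.2, 57.0, 73.1 and 80.8 CPM in inflamed CCR2+ve and 36.5, 35.4, 40.7 and 37.4 CPM in the libraries labelled inflamed CCR1. For Itgb1 too, no inflamed library reached the lowest resting library. Their shared partner Itga4 was at 183, 154, 166 and 173 CPM in resting CCR1/2+ve, 275, 226, 263 and 266 CPM in resting CCR2+ve, 226, 301 and 252 CPM in inflamed CCR1/2+ve and 279, 265, 346 and 310.1 CPM in inflamed CCR2+ve monocytes. Itga4 was thus lowest in the resting CCR1/2+ve population among monocytes, and it was at 48.1, 53.5, 53.1 and 47.7 CPM in the libraries labelled inflamed CCR1.

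Per kb, Itgb7 exceeded Itgb1 in every monocyte library. Itgb7 made up 81.7 ± 2.24% (SD, n = 4) of the summed Itgb1 and Itgb7 level in resting CCR1/2+ve and 79.7 ± 1.79% (n = 4) in resting CCR2+ve monocytes. In inflamed monocytes it made up 73.7 ± 3.55% (n = 3) and 72 ± 3.11% (n = 4), and in the libraries labelled inflamed CCR1 4.81 ± 1.95% (n = 4). Over all 3 beta chains the share of Itgb2 was 52.4 ± 2.52% and 50.8 ± 0.814% in the resting and 93.3 ± 1.39% and 91.1 ± 1.57% in the inflamed CCR1/2+ve and CCR2+ve populations. The beta chain transcripts of resting monocytes were thus nearly evenly parted between beta2 and the partners of alpha4, and those of inflamed monocytes were mostly beta2. These shares are a description, chosen after the values were seen.

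**Figure D2:**
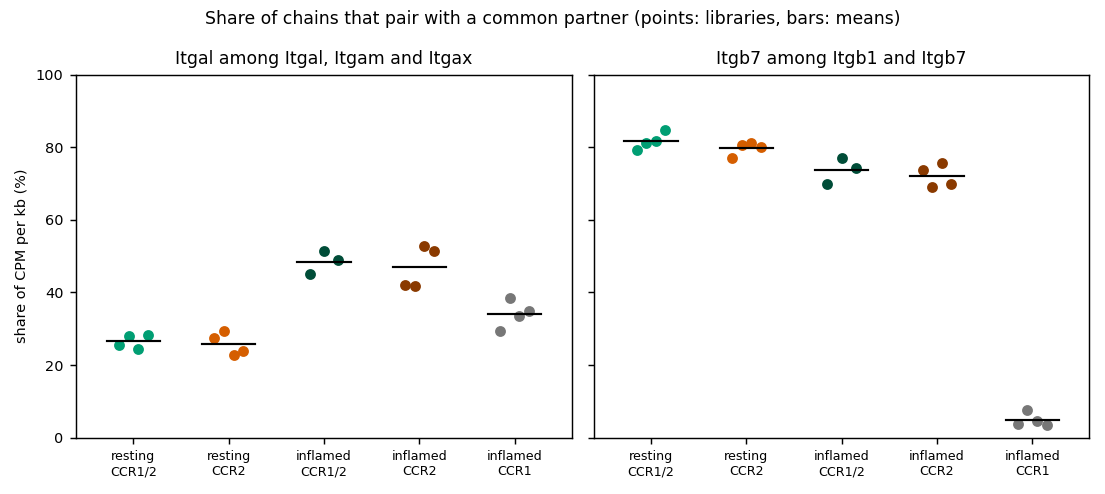
Share (%) of Itgal in the summed CPM per kb of Itgal, Itgam and Itgax (left) and of Itgb7 in that of Itgb1 and Itgb7 (right) in the 19 libraries, with points for libraries and bars for group means. Itgal shares lie at 22.7 to 29.3% in resting and 41.8 to 52.8% in inflamed monocytes, and Itgb7 shares stay between 69.0 and 84.6% in monocytes but are 3.41 to 7.66% in the libraries labelled inflamed CCR1.

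The selectin pathway members varied least between the monocyte groups. Selplg was at 784 to 940 CPM in resting CCR1/2+ve, 957 to 1049 CPM in resting CCR2+ve, 928 to 1008 CPM in inflamed CCR1/2+ve and 861 to 1041 CPM in inflamed CCR2+ve monocytes. Its highest monocyte group mean was 1.17 times its lowest. Cd44 was at 372 to 488 CPM in resting CCR1/2+ve, 425 to 578 CPM in resting CCR2+ve, 536 to 604 CPM in inflamed CCR1/2+ve and 452 to 505 CPM in inflamed CCR2+ve monocytes, a ratio of the extreme group means of 1.31.

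Ordered by level per kb of unshared exon, Itgb2 came first in each group and Itgax last. The rank of Itgam depends on this choice of length. Over all its exonic bases Itgam was at 26.2 ± 5.15 CPM per kb in resting and 22.6 ± 1.22 CPM per kb in inflamed CCR2+ve monocytes. In resting CCR2+ve monocytes Itgb7 (281 ± 36.5 CPM per kb, n = 4) and Selplg (234 ± 11.2) followed, and these neighbours differed by little more than the SD of Itgb7. Itgam (83.6 ± 16.4), Cd44 (76.4 ± 10.1) and Itgb1 (71.4 ± 6.65) came next and lay within their spread, ahead of Itgal (28.6 ± 1.52) and Itga4 (20.0 ± 1.69). In inflamed CCR2+ve monocytes Selplg (227 ± 18.4 CPM per kb, n = 4) stood second and apart, while Itgam (72.2 ± 3.89), Cd44 (70.4 ± 3.20) and Itgal (66.2 ± 15.6) did not part beyond their spread. Itgb7 (44.2 ± 10.0) came below these, and Itgb1 (16.9 ± 2.50) ranked below Itga4 (23.4 ± 2.80). The order of the CCR1/2+ve population differed from this in resting cells by Cd44 (63.9 ± 7.08) ahead of Itgam (58.6 ± 10.2), and in inflamed cells likewise (83.8 ± 5.02 and 71.4 ± 5.78), with Itgb7 and Selplg at 215 ± 51.2 and 201 ± 19.5 in resting cells.

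The first comparison asks how the populations differ at rest. All 9 genes were lower in resting CCR1/2+ve than in resting CCR2+ve monocytes. Their median difference on the log2 scale was -0.37, against 0.03 over all genes tested. Of the 9, 4 fell at an adjusted p below 0.05 (quasi-likelihood test of edgeR, p values adjusted by Benjamini and Hochberg over 18652 genes), where 16.9% of all genes tested changed and 8.44% fell. These were Itga4 (log2 fold change -0.53, standard error 0.08, adjusted p = 0.000828), Itgb1 (-0.51, 0.11, adjusted p = 0.00590), Itgal (-0.37, 0.08, adjusted p = 0.00611) and Itgam (-0.44, 0.13, adjusted p = 0.0425). None passed the additional cutoff of the study, a change of 1 or more on the log2 scale, which 4.25% of all genes passed together with the adjusted p. Libraries did not overlap for Itgal, Itga4, Itgb1 and Selplg (4 of 9, against 20.2% of all genes), and each of these gave p = 0.0286 in a two-sided exact permutation test, the smallest p that 4 libraries against 4 allow. For the alpha4 pair the difference was thus one of about 1.44-fold in Itga4 and 1.43-fold in Itgb1.

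The replicate numbers pair these libraries: deviations from the group means correlated in each same-numbered pair. With the replicate number as a block all 9 genes fell (25.7% of all genes changed under the block and 13.2% fell). This added Itgb2 (-0.27, adjusted p = 0.000289), Itgb7 (-0.33, adjusted p = 0.000436), Cd44 (-0.18, adjusted p = 0.0157), Selplg (-0.15, adjusted p = 0.0276) and Itgax (-1.94, adjusted p = 0.0425), of which Itgax alone passed both cutoffs (5.66% of all genes did). Without the block their adjusted p were 0.0678 for Itgb2, 0.148 for Itgb7, 0.247 for Cd44, 0.223 for Selplg and 0.0802 for Itgax, and with DESeq2 6 of the 9 genes fell (21.3% of all genes changed). The call of Itgam without the block was lost when replicate 1, 2 or 4 of the CCR1/2+ve libraries (adjusted p = 0.0772, 0.116 and 0.0960) or replicate 1, 3 or 4 of the CCR2+ve libraries (adjusted p = 0.0677, 0.138 and 0.103) was left out. Itgb2 passed without replicate 3 of the CCR1/2+ve (adjusted p = 0.0364) or replicate 2 of the CCR2+ve libraries (adjusted p = 0.0419). It also passed with DESeq2 (adjusted p = 0.0155). In edgeR it passed with DESeq2's size factors (adjusted p = 0.0499), library totals alone (adjusted p = 0.0245) and filterByExpr (adjusted p = 0.0398). The fit of all 19 libraries gave the same call (adjusted p = 0.0375). The monocyte, mature neutrophil, early granule, dendritic cell, T and NK cell and proliferation markers given above moved with this comparison without overlap, and their part in it was not tested.

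Inflammation changed the integrin chains of CCR2+ve monocytes in both directions. Of the 9 genes, 3 rose and 2 fell between resting and inflamed CCR2+ve monocytes, where 47.8% of all genes changed, 21.9% rising and 25.9% falling. Itgal rose 2.21-fold (log2 fold change 1.14, standard error 0.15, adjusted p = 1.37e-05) and its partner Itgb2 1.64-fold (0.72, 0.09, adjusted p = 1.22e-05). Itgb7 fell by 2.73 on the log2 scale (standard error 0.16, adjusted p = 2.94e-09), which is 6.64-fold lower, and Itgb1 fell by 2.14 (0.13, adjusted p = 2.87e-09), which is 4.42-fold lower. The libraries of these 4 genes did not overlap between the groups, as for 45.7% of all genes, and each gave p = 0.0286 in the exact permutation test. Itgax rose as well (log2 fold change 1.61, standard error 0.51, adjusted p = 0.0172), with overlapping libraries. Itgal, Itgax, Itgb1 and Itgb7 also passed the cutoff of 1 on the log2 scale (4 of 9, against 28.6% of all genes).

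The other 4 genes did not pass in this population. The log2 fold change of Itgam was -0.28 (standard error 0.13, adjusted p = 0.0804), of Itga4 0.15 (0.11, adjusted p = 0.286), of Selplg -0.12 (0.09, adjusted p = 0.319) and of Cd44 -0.19 (0.10, adjusted p = 0.159). The call of Itgax rested on replicate 3 of the inflamed libraries, without which the log2 fold change was 1.17 (adjusted p = 0.0712), and Itgam passed without replicate 2 of the resting libraries (-0.33, adjusted p = 0.0308). Itgam also passed with filterByExpr (-0.30, adjusted p = 0.0450) and with library totals alone (-0.35, adjusted p = 0.0185), and Cd44 passed with library totals alone (-0.25, adjusted p = 0.0295). So in CCR2+ve monocytes both beta chains of alpha4 fell, while the alpha4 transcript did not pass the test.

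The 5 genes that changed with inflammation in CCR2+ve monocytes changed in the same direction in CCR1/2+ve monocytes, and Itga4 and Cd44 passed there as well. Here 5 rose and 2 fell, where 46.0% of all genes changed, 20.6% rising and 25.4% falling. Itgal rose 2.98-fold (log2 fold change 1.57, standard error 0.13, adjusted p = 1.36e-06), Itgb2 2.40-fold (1.26, 0.09, adjusted p = 3.23e-07) and Itga4 1.41-fold (0.49, 0.11, adjusted p = 0.00389). Itgax (log2 fold change 2.31, standard error 0.68, adjusted p = 0.0154) and Cd44 (0.26, 0.09, adjusted p = 0.0297) rose too. Itgb7 fell by 2.55 on the log2 scale (standard error 0.22, adjusted p = 1.38e-05), which is 5.87-fold lower, and Itgb1 fell by 1.90 (0.13, adjusted p = 3.53e-07), which is 3.74-fold lower. Of these, Itgal, Itgb2, Itgax, Itgb7 and Itgb1 passed the cutoff of 1 on the log2 scale too (5 of 9, against 28.5% of all genes). Libraries of all 7 genes did not overlap, as for 50.1% of all genes, and each gave p = 0.0571 in the exact permutation test, the smallest p that 3 libraries against 4 allow. Itgam (0.16, standard error 0.12, adjusted p = 0.312) and Selplg (0.05, 0.08, adjusted p = 0.621) did not pass.

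The median log2 fold change of all genes in this comparison was -0.25, and scaling by library totals alone in place of TMM lowered it by 0.20, to -0.46. That scaling moved the share of higher genes among those called from 44.8% to 34.7%, ended the calls of Cd44 (log2 fold change 0.07, adjusted p = 0.495) and Itga4 (0.29, adjusted p = 0.0521) and turned Itgam (-0.04) and Selplg (-0.14). The call of Cd44 was also lost without replicate 3 of the inflamed libraries (adjusted p = 0.123) and without replicate 1, 2 or 4 of the resting libraries (adjusted p = 0.0801, 0.0745 and 0.0691), and that of Itgax without replicate 3 of the inflamed libraries (adjusted p = 0.0504). The erythroid, dendritic cell, T and NK cell, basophil and mast cell and tissue macrophage markers given above moved with inflammation in both populations. Mature neutrophil markers moved in CCR2+ve and early granule markers in CCR1/2+ve monocytes. In CCR1/2+ve monocytes the summed monocyte markers were also higher when inflamed (52550.0 to 56550.0 against 31800.0 to 44660.0 CPM at rest). B cell markers were lower there (18.4 to 25.0 against 26.8 to 33.0 CPM). The part of all these markers was not tested.

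**Figure D3:**
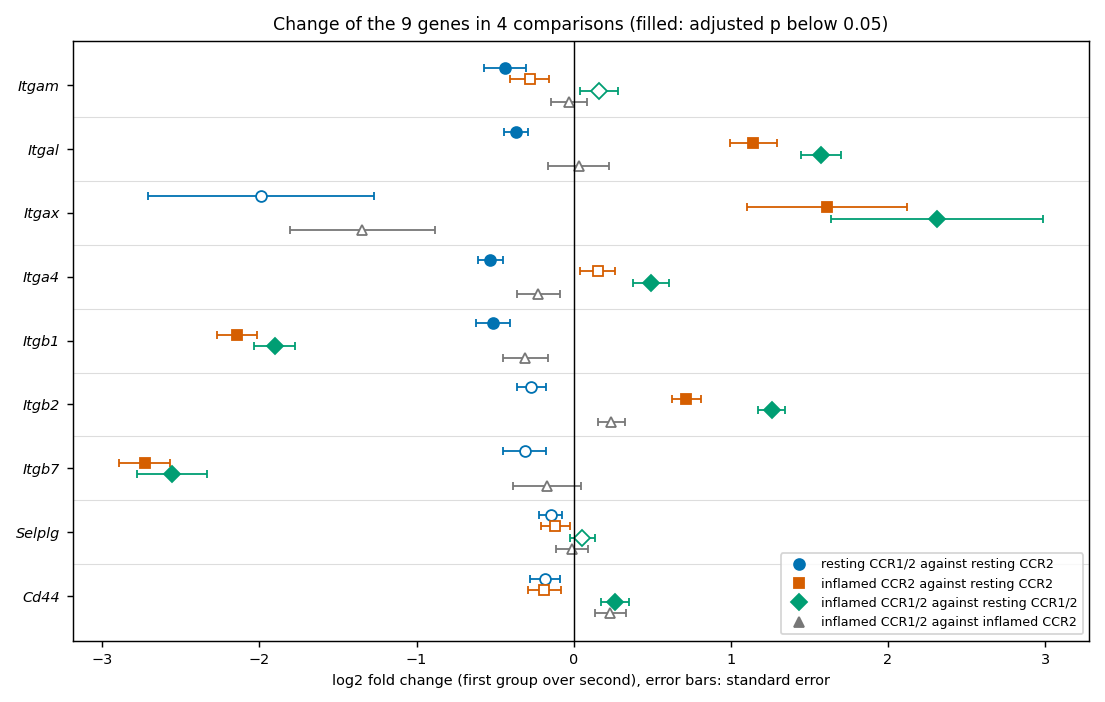
Log2 fold changes (first group over second) of the 9 genes in 4 comparisons, with standard errors and filled symbols at an adjusted p below 0.05. Itgb7 (-2.73 and -2.55) and Itgb1 (-2.14 and -1.90) lie far to the left and Itgal (1.14 and 1.57) to the right in both inflammation comparisons, while no symbol of the comparison of the inflamed populations is filled.

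Whether inflammation moved the genes differently in the populations was tested as an interaction in a fit of the 15 CCR1/2+ve and CCR2+ve libraries. All 9 estimates were positive, meaning a larger increase or a smaller decrease in CCR1/2+ve monocytes, where 42.5% of all genes tested were positive. Their median was 0.39, against -0.10 over all genes. These estimates share their resting libraries with the comparison at rest. With edgeR 0 of the 9 genes passed at an adjusted p below 0.05 (0.397% of all genes did), and 3 had an unadjusted p below 0.05. The largest relative to its error was Itgb2, with a difference of log2 fold changes of 0.50 (standard error 0.13, adjusted p = 0.0878), followed by Cd44 (0.41, 0.14, adjusted p = 0.215) and Itgam (0.40, 0.19, adjusted p = 0.377). With the replicate block Itgb2 (adjusted p = 0.00757) and Cd44 (adjusted p = 0.0374) passed in edgeR, as did 473 of all 18652 genes. This block also pairs the inflamed populations by number. There r of same-numbered libraries was -0.21 to 0.39 and of others -0.52 to 0.32, so the pairing has no such footing as at rest. Itgb2 passed with DESeq2 (adjusted p = 0.00901), the 1 gene of the 9 that did (2.86% of all genes), and without replicate 4 of inflamed CCR2+ve monocytes (adjusted p = 0.0488). The differences of Itga4 (0.30, standard error 0.16, adjusted p = 0.464) and Itgal (0.39, 0.22, adjusted p = 0.479) did not pass, so the call of Itga4 in CCR1/2+ve monocytes alone does not show that the populations respond differently. Scaling with DESeq2's size factors moved the interaction calls over all genes from 74 to 113 and their share of positive values from 60.8% to 75.2%.

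The next comparison asks how the populations differ once inflamed. Between inflamed CCR1/2+ve and inflamed CCR2+ve monocytes 0 of the 9 genes passed with edgeR or with DESeq2, and 3 had an unadjusted p below 0.05 with edgeR. Of all genes, 0.188% passed with edgeR and 1.42% with DESeq2. The log2 fold changes were 0.24 for Itgb2 (standard error 0.09, adjusted p = 0.418), 0.23 for Cd44 (0.10, adjusted p = 0.497) and -1.35 for Itgax (0.46, adjusted p = 0.402), and the libraries of these 3 did not overlap (as for 9.71% of all genes). Those of Itgal (0.03, standard error 0.20, adjusted p = 0.993), Selplg (-0.01, 0.10, adjusted p = 1.00) and Itgam (-0.03, 0.11, adjusted p = 0.979) were near 0, and their signs changed with the processing. Itga4 (-0.22, standard error 0.14), Itgb1 (-0.31, 0.14) and Itgb7 (-0.17, 0.22) did not pass either.

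The libraries labelled inflamed CCR1 carried a different set of adhesion transcripts. Against inflamed CCR2+ve monocytes 8 of the 9 genes fell (48.1% of all genes changed, 25.4% fell), and against inflamed CCR1/2+ve monocytes also 8 (43.2% changed, 23.0% fell). Itgb7 fell by 6.56 on the log2 scale (standard error 0.26, adjusted p = 1.86e-11) against CCR2+ve and by 6.42 (0.30, adjusted p = 1.04e-07) against CCR1/2+ve monocytes. The log2 fold changes of Selplg were -2.64 (standard error 0.10, adjusted p = 9.91e-13) and -2.65 (0.09, adjusted p = 3.59e-11) in the same order. Those of Itga4 were -2.56 (standard error 0.12, adjusted p = 1.15e-11) and -2.36 (0.12, adjusted p = 2.19e-09), so both PSGL-1 and alpha4 transcripts fell against either population. These comparisons share the libraries labelled inflamed CCR1, so their likeness is not a further result. On the log2 scale the changes were -1.14 and -1.19 for Itgal, -0.88 and -0.59 for Itgb1 and -0.58 and -0.83 for Cd44, all past the threshold. The beta2 chain itself did not pass against CCR2+ve monocytes (-0.16, standard error 0.10, adjusted p = 0.220) and fell by 0.42 (0.10, adjusted p = 0.00407) against CCR1/2+ve monocytes. Itgam fell by 0.30 (adjusted p = 0.0291) against CCR2+ve and did not pass against CCR1/2+ve monocytes (-0.29, adjusted p = 0.0566). The first of these was lost without replicate 2 (adjusted p = 0.146) or 3 (adjusted p = 0.0550) of the libraries labelled inflamed CCR1, or without replicate 1 (adjusted p = 0.0673) or 3 (adjusted p = 0.0600) of the CCR2+ve libraries, in the fit of all 19 libraries (adjusted p = 0.0624) and without a filter on low counts (adjusted p = 0.0823), and the second passed without replicate 2 of the CCR1/2+ve libraries (adjusted p = 0.0250).

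For Itgax, with 10 reads in all in these 4 libraries, the ratio of summed reads per effective library size is given in place of a fitted fold. It was 37.2 times higher in inflamed CCR2+ve (95% exact interval 19.98 to 78.1) and 15.1 times higher in inflamed CCR1/2+ve monocytes (7.90 to 32.3), intervals that cover counting error only. Libraries did not overlap for 8 of the 9 genes against CCR2+ve (45.3% of all genes) and for 9 of 9 against CCR1/2+ve monocytes (47.4%). The monocyte, neutrophil, early granule, proliferation and basophil and mast cell markers given above moved with both comparisons. So did T and NK cell markers, at 1360 to 1707 CPM in the libraries labelled inflamed CCR1 (7 of 8 under 1 CPM). Dendritic cell markers, at 0.95 to 2.54 CPM there, moved as well. The part of all these markers was not tested.

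The other genes of adhesion were taken from 8 lists of the pathway around these receptors. At rest, where 16.9% of all genes changed, genes of each list went both ways. Of 18 tested genes of integrin activation, the step in which talin and RAP1 switch the receptor to high affinity, 1 rose and 4 fell in CCR1/2+ve monocytes (median log2 fold change -0.25), among them Rap1b (292 ± 40.6 against 554 ± 122 CPM, SD, n = 4 each), the adaptor Fyb (218 ± 26.7 against 384 ± 50.8 CPM) and Rassf5, the RAP1 effector RAPL (236 ± 46.7 against 346 ± 51.1 CPM). Of 19 genes of integrin signalling and linkage to actin 2 rose and 4 fell (median -0.18), and Parvg, a parvin of leukocytes, was among those that rose (116 ± 14.4 against 69.7 ± 9.001 CPM). Of 14 enzymes of selectin ligand glycosylation 1 rose and 5 fell (median -0.30), and of 13 other integrin chains 1 rose and 2 fell (median 0.23). The former was Itgad, the CD11d partner of beta2, at 0.963 ± 0.934 against 0.0198 ± 0.0229 CPM (at most 68 reads against 1 per library), and Itgav, the alpha chain of vitronectin receptors, was among the latter (26.0 ± 4.59 against 37.6 ± 4.13 CPM).

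The smaller lists at rest went both ways. Of 12 CD44 partners and hyaluronan genes 3 rose and 3 fell (median 0.30), Cd74 among the latter (177 ± 85.8 against 1027 ± 519 CPM), a gene of antigen presentation as well as a partner of CD44. Of 10 sheddases and their regulators 1 rose and 4 fell (median -0.24), of 6 other selectin ligands and selectins 3 rose and 1 fell (median 0.48) and of 11 integrin ligands 1 rose and 3 fell (median -0.39). The ligand that rose was Vcam1, the counterpart of VLA-4 (26.2 ± 14.97 against 1.69 ± 1.13 CPM). Vcam1 is also 1 of the 10 tissue macrophage markers, of which 4 reached 10 CPM in resting CCR1/2+ve and 2 in resting CCR2+ve monocytes. The sums of these markers overlapped (212 to 291 against 268 to 390.2 CPM), and the part of such cells was not tested. Among the others, Cd24a, a ligand of P-selectin, rose (47.3 ± 13.0 against 22.7 ± 3.93 CPM) and Icam1, the ligand of LFA-1 and Mac-1, fell (20.1 ± 3.13 against 45.2 ± 8.18 CPM).

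With inflammation, the glycosylation enzymes that make PSGL-1 a selectin ligand were the list with most genes that fell. In CCR2+ve monocytes 11 of 14 fell and 1 rose (median log2 fold change -1.02, against -0.10 over all genes), and in CCR1/2+ve monocytes 10 fell and 1 rose (median -0.94, against -0.25). Tpst2, which adds sulfate to tyrosines of PSGL-1, went from 227 ± 21 to 33.5 ± 6.85 CPM (SD, n = 4 each) in CCR2+ve and from 177 ± 22.2 (n = 4) to 26.3 ± 5.21 CPM (n = 3) in CCR1/2+ve monocytes. Its relative Tpst1 went from 38.2 ± 5.19 to 5.24 ± 1.12 CPM and from 19.3 ± 3.51 to 3.66 ± 1.63 CPM. Fut4, a fucosyltransferase that completes the sialyl Lewis x group, went from 42.5 ± 6.50 to 6.14 ± 1.99 CPM and from 26.2 ± 4.73 to 5.37 ± 0.579 CPM. Transcripts of these modifying enzymes thus fell in both populations, while Selplg itself did not pass the test in either. C1galt1c1, the chaperone of the enzyme that extends core O-glycans, was the 1 gene of all 8 lists that passed between the inflamed populations (694 ± 78.2 CPM in CCR1/2+ve, n = 3, and 399 ± 18.2 CPM in CCR2+ve monocytes, n = 4).

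Genes of the integrin activation list rose more often than they fell with inflammation. The list was not split by whether a gene promotes or restrains activation, so its counts give no direction of activation. Of the 18, 9 rose and 5 fell in CCR2+ve (median log2 fold change 0.43) and 12 rose and 4 fell in CCR1/2+ve monocytes (median 0.70). Filamin A (Flna), which binds beta chain tails and actin, went from 626 ± 43.1 to 2734 ± 382 CPM and from 575 ± 66.6 to 3029 ± 269 CPM. Rap1b went the other way, from 554 ± 122 to 94.3 ± 11.3 CPM and from 292 ± 40.6 to 85.8 ± 2.14 CPM. Rasgrp2 fell as well in CCR1/2+ve monocytes, from 211 ± 20.2 to 66.0 ± 5.54 CPM. Tln2 rose in CCR2+ve monocytes, from 0.769 ± 0.276 to 19.2 ± 3.16 CPM. Of the 19 genes of signalling and linkage to actin, 8 rose and 6 fell in CCR2+ve (median 0.23) and 7 rose and 5 fell in CCR1/2+ve monocytes (median 0.45), with zyxin (Zyx) from 613 ± 36.5 to 139 ± 28.3 CPM and from 479 ± 70.6 to 127 ± 12.2 CPM. Of 13 other integrin chains 3 rose and 3 fell (median 0.27) and 2 rose and 5 fell (median -0.45), Itga8, Itgav and Itgb3 among the fallen in both.

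Integrin ligands mostly rose. Of 11 tested, 8 rose and 1 fell in CCR2+ve (median 0.61) and 7 rose and 2 fell in CCR1/2+ve monocytes (median 0.71). F11r, which encodes JAM-A, a ligand of LFA-1, went from 1.65 ± 0.432 to 248 ± 25.7 CPM and from 0.671 ± 0.292 to 196 ± 33.4 CPM. Icam1 went from 20.1 ± 3.13 to 62.9 ± 9.84 CPM in CCR1/2+ve monocytes. Of 10 sheddases and regulators 5 rose and 2 fell (median 0.49) and 4 rose and 1 fell (median 1.16), with Adam17, the main sheddase of leukocyte adhesion receptors, from 158 ± 24.4 to 318 ± 30.9 CPM and from 109.6 ± 12.6 to 305 ± 11 CPM. Of 12 CD44 partners 5 rose and 1 fell (median 1.14) and 4 rose and 2 fell (median 0.28), with moesin (Msn), which ties CD44 and PSGL-1 to actin, from 1736 ± 154 to 3685 ± 254 CPM and from 1302 ± 163 to 4074 ± 291 CPM. Of 6 other selectin ligands and selectins 3 rose and 2 fell (median -0.01) and 1 rose and 2 fell (median -0.19). These counts stand against 47.8% and 46.0% of all genes changed and are a description of the lists.

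**Figure D4:**
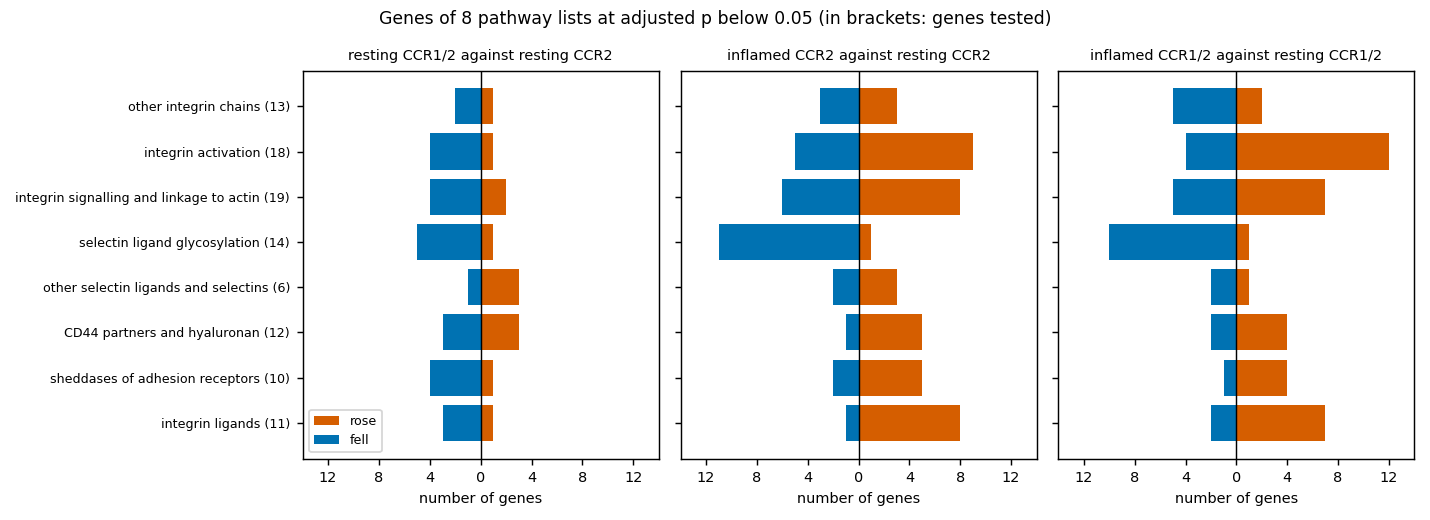
Number of genes of 8 pathway lists that rose (right, orange) or fell (left, blue) at an adjusted p below 0.05 in 3 comparisons, with the genes tested per list in brackets. The enzymes of selectin ligand glycosylation stand out to the left in both inflammation comparisons (11 and 10 of 14), while integrin activation (9 and 12 of 18) and integrin ligands (8 and 7 of 11) lie mostly to the right.

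For the 5 genes whose group means differed at least 4 times, the genes most like them over the 19 libraries were found by Pearson correlation of log2 CPM among 7685 genes with a mean of at least 10 CPM. The points share the libraries and the 5 groups, and r is a description. Itgb1 was most like Tmem135 (r = 0.99), Zyx (r = 0.99) and Efr3a (r = 0.99), and r was 0.99 for each without the libraries labelled inflamed CCR1 (n = 15). Itgb7 was most like Met, Pid1 and Sh3glb1 (r = 0.99 each, and 0.96, 0.98 and 0.97 over the 15 libraries). Itga4 was most like Csf1r, the receptor of CSF-1, Anxa4 and Gm5431 (r = 0.99 each, and 0.95, 0.93 and 0.94). Selplg was most like Galnt9, Rnd3 and Tifab, where r of 1.00 each fell to 0.84, 0.70 and 0.66 over the 15 libraries. Itgax was most like Tpp2, Ly6a and Pacsin2 (r = 0.89 each, and 0.84, 0.84 and 0.83). Group means of the 5 genes differed by up to 606 times for Itgb7, 37.97 times for Itgax, 7.77 times for Itgb1, 6.47 times for Selplg and 5.93 times for Itga4, and by 7.07, 13.7, 5.16, 1.17 and 1.78 times without the libraries labelled inflamed CCR1.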

How the data were processed

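Bulk RNA-seq counts of 19 libraries in 5 groups, named by the sample titles, were analysed. Per the labels and methods, the authors prepared libraries with a low-input kit, checked read quality in fastp and mapped the read pairs to GRCm38 using STAR 2.7.10a (reads mapping to 1 place over 35 or more bases). What they deposited is the raw read count per gene of Ensembl release 91, and 1 column that matches no sample record was not used here. The members and lists were chosen with earlier results of these data known. The members, up to 3 genes per list and comparison with the smallest p among those called without overlap, and the 3 genes most like each variable member are named, other named list and marker genes being examples.

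Genes averaging 1 or more reads were tested with edgeR 4.0.16 in R 4.3.3 on the libraries of 2 groups (TMM, robust quasi-likelihood F test, two-sided, Benjamini-Hochberg over 18652 genes), and the interaction in 1 fit of 15 libraries. Standard errors are the log2 fold change over the root of F. Levels are CPM with TMM factors over 19 libraries. Exact permutation tests compared mean CPM. Exon lengths are of GENCODE M21, and promoters of RefSeq. Alternatives were DESeq2 1.42.0, its size factors, library totals alone, no filter, filterByExpr, all 19 libraries in 1 fit, the replicate block and leaving out each library. Code was checked on simulated data. Of the listed genes, 8 have no counts here. No 2 libraries held identical counts.

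Same-numbered resting CCR1/2+ve and CCR2+ve libraries correlated in their deviations from the group means at r = 0.26 to 0.47 over 10147 genes (4 pairs; other numbers -0.35 to 0.19), so the numbers pair them on this correlation alone. Total counts of 22268658 to 30502009 reads per library leave counting error small except for Itgax, and for Itgb7 in the libraries labelled inflamed CCR1.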

Additional observations from a re-analysis of the deposited data

Results flagged for a closer look

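Among the 9 genes and the 4 groups of 4 libraries, 36 sets of 4 values were examined for a library that stands far from the others of its group, and 1 was found. Itgal in replicate 2 of resting CCR2+ve monocytes was at 173.0 CPM, below the other 3 libraries at 192 to 194 CPM, with a gap of 0.907 of the whole range of the group. Chance marks about 1 in 20 such sets. Without this library the fall of Itgal in resting CCR1/2+ve monocytes remained past the threshold, as it did without each other library (highest adjusted p 0.0224, edgeR).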

How the results depend on the processing

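Without the replicate block 4 of the 9 genes fell at rest and with it 9 (the cause was not tested), and 3 to 5 when each library was left out in turn. Itgax passed both cutoffs at rest with DESeq2, in the fit of all 19 libraries and with the block (1 gene each, against 0). In the interaction 1 gene passed with DESeq2, 2 with the block (Itgb2, adjusted p = 0.00757, and Cd44, adjusted p = 0.0374) and 0 to 1 without each library. For the other 5 comparisons r of same-numbered libraries was -0.22 to 0.39, and what the numbers share there is not given. Same-numbered pairs lay above all others between inflamed and resting CCR1/2+ve monocytes (0.081 to 0.185 against -0.170 to 0.071). They also did between the libraries labelled inflamed CCR1 and inflamed CCR2+ve monocytes (0.087 to 0.202 against -0.200 to 0.076). In the rest the ranges overlapped. The block ended the calls of Itgax in CCR2+ve (adjusted p = 0.0541, edgeR) and Cd44 in CCR1/2+ve monocytes with inflammation (adjusted p = 0.0696). Without a filter on low counts the former was also lost (adjusted p = 0.0569).

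Between the inflamed populations the calls over all genes were 35, with 265 in DESeq2, 148 in the fit of all libraries, 120 without a filter and 231 with the block, and 16 to 65 without each library. In the interaction they were 74, with 534 in DESeq2, 113 with its size factors, 122 with filterByExpr, 145 without a filter and 473 with the block, and 0 to 253 without each library. At rest they were 3149, and 4785 with the block.

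Signs turned only for values near 0, for which the cause was not tested. Between the inflamed populations the log2 fold change of Itgal was -0.0047 with library totals and -0.028 with the block, and -0.14 to 0.18 without each library. That of Selplg was 0.0038 in the fit of all libraries, 0.0017 with filterByExpr, 0.0054 without a filter, 0.022 with the block and -0.065 to 0.030 without each library. Leaving out each library gave -0.11 to 0.020 for Itgam and -0.39 to 0.0074 for Itgb7, and -0.087 to 0.31 for Itgb7 in the interaction. With library totals Itgam was at -0.036 and Selplg at -0.14 in CCR1/2+ve monocytes with inflammation. Among the log2 fold changes of the 9 genes under the alternatives, 907 kept direction and side of the threshold, 23 gained and 23 lost the call and 19 turned. Depth limits Itgax, at 0 to 161 reads, and Itgb7 in the libraries labelled inflamed CCR1, at 19 to 44 reads.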

Other observations

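Outside the 9 genes, the libraries labelled inflamed CCR1 differed from inflamed CCR2+ve monocytes in other integrin chains and their linkers. Of all genes tested 48.1% changed and 25.4% fell in this comparison. Of 13 other integrin chains 3 rose and 3 fell: Itga6, a laminin receptor chain, was at 30.3 ± 2.40 against 7.86 ± 2.40 CPM (SD, n = 4 each), Itga2, a collagen receptor chain, at 8.62 ± 0.715 against 2.21 ± 0.416 CPM and Itgb5 at 0.757 ± 0.543 against 19.5 ± 4.44 CPM. Of 18 genes of integrin activation 2 rose and 12 fell, with Fyb at 28.8 ± 5.76 against 409 ± 29.7 CPM. The actin crosslinker Actn1 was at 120.1 ± 11.2 against 2.31 ± 0.534 CPM, and 4 of 19 genes of its list rose and 7 fell. Vcam1, the ligand of VLA-4, was at 464 ± 48.0 against 1.13 ± 0.437 CPM. Of 10 sheddases and regulators 8 fell and 1 rose, Adam17 at 95.3 ± 10.8 against 318 ± 30.9 CPM. Of the 14 glycosylation enzymes 4 rose and 7 fell, Gcnt1, which branches core O-glycans, at 13.2 ± 1.89 against 94.9 ± 14.1 CPM. These values are given by label, beside the neutrophil and early granule markers of these libraries, whose part was not tested.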
